A study of Caligus rogercresseyi with 6 samples.

Results

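The chalimus of the sea louse Caligus rogercresseyi, the larva attached to its fish host, was compared with the egg over 23441 transcript contigs. These were the contigs with 50 or more counts in at least 1 of the 2 libraries, out of 44089 contigs in the files, of which 31280 had a count in chalimus or egg. RNA-seq was made from whole wild-type animals, pooled within each stage and linked by the labels to farmed Atlantic salmon. The libraries used were chalimus and egg, followed by adult female and adult male, with 1 pooled library each, so that no difference here has a replicate check. No label gives the age of the embryos, the chalimus instar, the number of animals in a pool, or whether the females carried egg strings.

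Sea lice are parasitic copepods with a direct life cycle. The female carries her eggs outside the body in a pair of strings, in which the embryos develop, and free-swimming nauplii hatch from them and moult to the infective copepodid. After settling on a fish the louse moults to the chalimus, which is tethered to the skin by a frontal filament, feeds on the host, grows through several moults and becomes an adult male or female. Chalimus and egg therefore lie on the 2 sides of hatching and settlement. The files do not pair contig identifiers with gene names, so contigs are given by identifier and no function is given to any of them.

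The libraries held 116318842 counts for chalimus, 120674263 for egg, 149426248 for adult female and 130218357 for adult male. Levels are given as counts, or as scaled CPM, which are the counts per 1000000 (CPM) of a library size scaled by trimmed means (TMM) without the copepodid library. A contig was called higher or lower when the scaled ratio was at least 4-fold and the higher library had at least 50 counts. No test across samples was possible, and intervals on a ratio are exact 95% counting intervals that say nothing of the spread between pools. A further file, labelled adult without a sex, has exactly the summed total of the female and male files (a difference of 0 counts) and was used only to check how reads had been assigned.

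Chalimus had more contigs above egg than below it. Of the 23441 contigs, 3958 were higher in chalimus, which is 16.9% of those tested, and 2343 were lower, which is 10%. The other 17140 were within 4-fold. In whole animals a change in the share of a cell type and a change in RNA per cell cannot be told apart. The median log2 chalimus to egg ratio of all contigs was -0.02, and 49.7% of them were within 2-fold. Scaling by total counts instead put this median at -0.29, with 3535 contigs higher and 2873 lower.

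**Figure D1:**
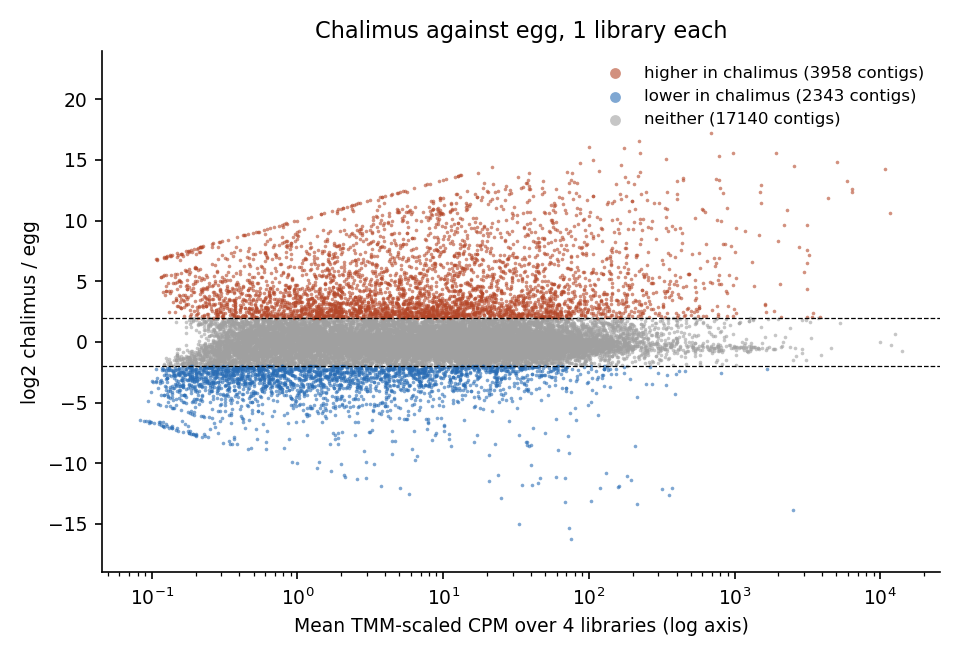
Log2 chalimus to egg ratio (vertical axis) of each of the 23441 contigs against its mean scaled CPM over chalimus, egg, adult female and adult male (horizontal log axis). Dashed lines mark a 4-fold difference. The 3958 contigs higher in chalimus reach larger ratios than the 2343 lower ones. The slanting edges are contigs with 0 counts in 1 of the 2 stages, drawn with 0.5 counts added on average, in proportion to library size.

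The contigs higher in chalimus also differed by more. With counts of 0 set at 3 counts, their median log2 ratio was 3.87, with quartiles at 2.68 and 5.98, whereas the contigs lower in chalimus had a median of -3.01, with quartiles at -3.96 and -2.39. Ranked this way, with all other counts left as they were, the stages were 256-fold or more apart for 493 contigs higher in chalimus. The same held for 59 lower in chalimus. A contig with 0 counts can thus rank below an equally abundant one with very few counts. Between 4-fold and 8-fold lay 1322 of the higher contigs (33.4%) and 1153 of the lower ones (49.2%). The cut at 4-fold falls in a continuous distribution. Just inside it the nearest log2 ratios were 2.00001 and -2.0006, and just outside it 1.99997 and -1.9993. Within 0.1 log2 units of the cut, 156 contigs were inside and 191 outside on the chalimus side, and 166 were inside and 178 outside on the egg side.

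Many contigs were absent from the counts of the other stage. In chalimus, 325 of the 3958 higher contigs (8.21%) had 0 egg counts, and 96 of these had 1000 or more chalimus counts. On the egg side, 78 of the 2343 contigs (3.33%) had 0 chalimus counts, 10 of them with 1000 or more egg counts. A count of 0 allows up to 3 counts, which is 0.0250 scaled CPM in chalimus and 0.0201 scaled CPM in egg. Of the 325 contigs without egg counts, adult female reached 50 counts for 78 (24%) and adult male for 202 (62.2%), against 80.2% and 81.4% of all contigs tested. Set against adult male, 14 of the 325 were higher in adult female (4.31%, background 11.6%) and 156 lower (48.0%, background 17.2%). Of the 78 without chalimus counts, adult female reached 50 counts for 18 (23.1%) and adult male for 1 (1.28%).

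The contigs higher in chalimus were a large part of the transcript pool of the attached stages. Together they took up 34.0% of all chalimus counts and 2.61% of all egg counts, and in the adults 27.9% (female) and 40.5% (male). Contigs lower in chalimus took up 0.898% of all chalimus counts and 10.7% of all egg counts, and in the adults 2.15% (female) and 0.613% (male). Wilson 95% intervals on these shares were at most 0.00898 percentage points on either side, for counting error only. Of the egg counts 86.6%, and of the chalimus counts 65.0%, lay in contigs that were neither higher nor lower. Per contig length, 510 of the contigs higher in chalimus (12.9%) had 100 FPKM or more in chalimus, against 3.41% of the contigs that were neither. In egg 132 of the lower ones (5.63%) had 100 FPKM or more, near the 4.39% of the contigs that were neither. Of the 100 contigs with the highest FPKM in chalimus, 40 were higher there than in egg, against 16.9% of all contigs tested. Of the 100 highest in egg, 4 were lower in chalimus, against 10% of all contigs tested. The ranking and the cut at 100 FPKM both use a library that makes the call. This favours contigs higher in that library, so the excess on the chalimus side is a description. On the egg side the share among the 100 was below that of all contigs tested despite this.

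**Figure D2:**
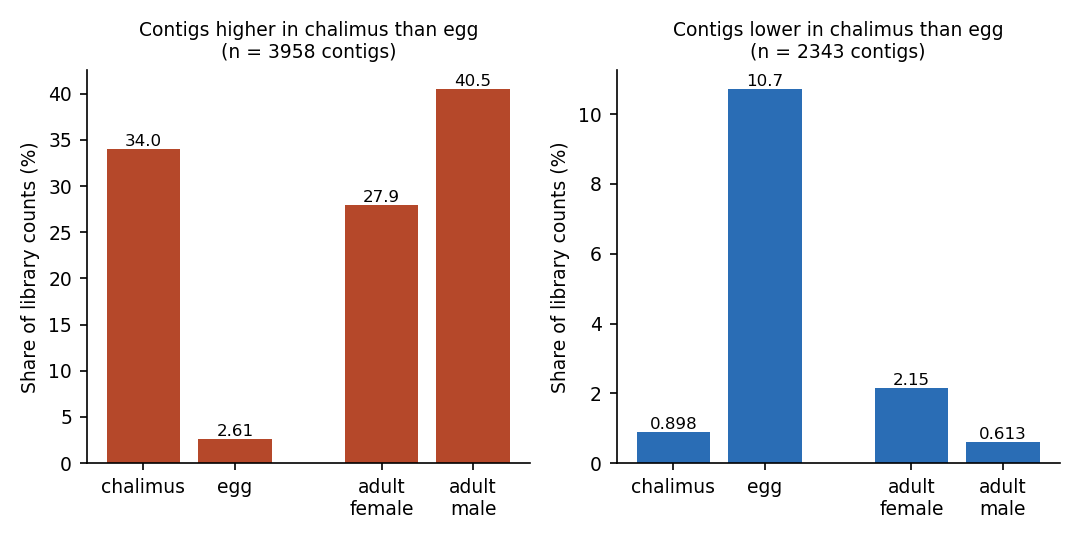
Share of each library's counts (%, bars from 0) held by the contigs higher in chalimus than egg (left) and lower in chalimus than egg (right), in chalimus, egg, adult female and adult male, 1 library each. The first set holds 34.0% of chalimus and 2.61% of egg counts, and 27.9% and 40.5% in adult female and adult male; the second holds 10.7% of egg counts and at most 2.15% in any of the other 3 libraries.

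The contig with the most chalimus counts among those higher in chalimus was GAZX01040019 (1278 nt). It had 699121 counts in chalimus and 4463 in egg, a 195-fold difference (counting interval 189 to 201). Adult female had 4470 and adult male 674809 counts of it, and the copepodid file had 333454. It was thus abundant in the attached larva and in the male, and stood in the female at about its egg level, 29.4 scaled CPM against 29.9 in egg.

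Contigs with extreme ratios were ranked here and for the sexes by the limit of the counting interval nearest to 1. The 2 with the highest chalimus to egg ratios were GAZX01002896 and GAZX01016619. GAZX01002896 (447 nt) had 70896 counts in chalimus and 0 in egg, and was thus at least 24517-fold higher in chalimus. Both adults had more of it, with 125262 counts in female and 136320 in male, whereas copepodid had 55. GAZX01016619 (1449 nt) had 176722 counts in chalimus and 4 in egg (55019.7-fold, interval 21488 to 201934). Its adult counts were 332086 in female and 399443 in male. Both contigs were thus near absent from egg and remained high after the chalimus in both sexes, within 4-fold of the chalimus level.

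On the egg side GAZX01041136 (2025 nt) held the most counts and was, with GAZX01021855, one of the 2 with the lowest ratios by that ranking. It took 1.23% of the egg library, with 80 counts in chalimus and 1483490 in egg, and was 14890.4-fold lower in chalimus (interval 11964 to 18779). Adult female had 28475 counts of it and adult male 9. GAZX01021855 (888 nt) had 0 counts in chalimus and 44750 in egg, and was at least 11860.1-fold lower in chalimus. Adult female had 476 counts and adult male 3, and copepodid had 55370. For both contigs the female level lay far below egg, 53.1-fold lower for GAZX01041136 and 95.9-fold lower for GAZX01021855, and far above male.

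**Figure D3:**
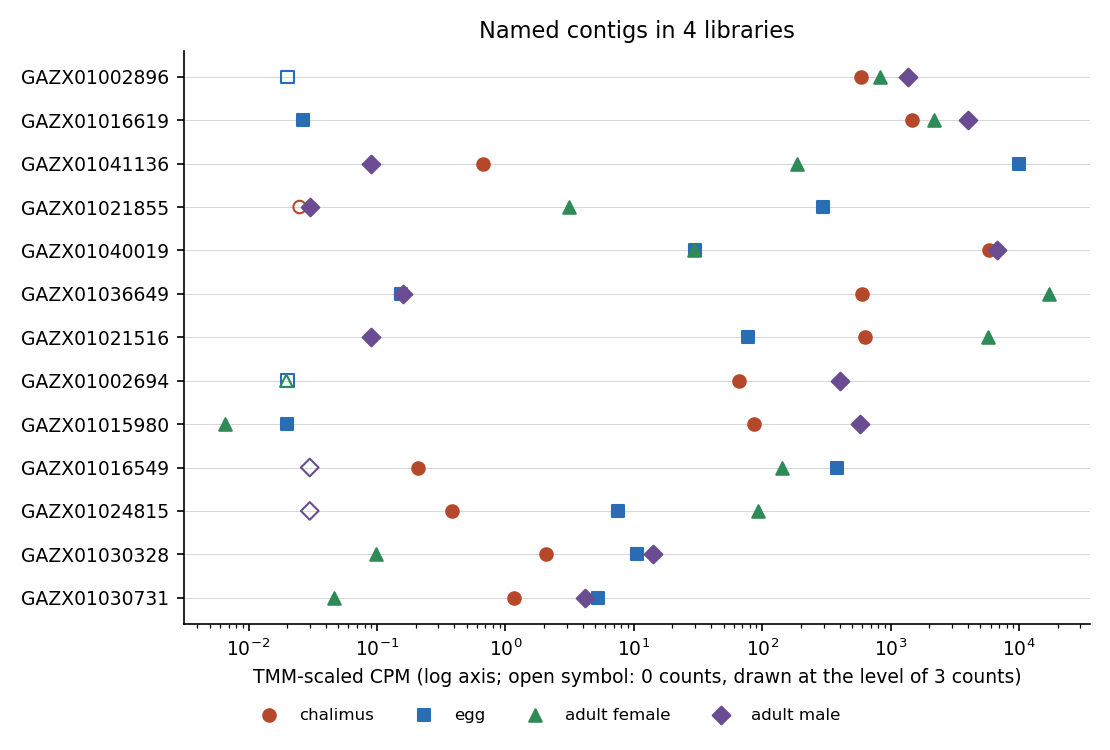
Scaled CPM (horizontal log axis) of the 13 named contigs in chalimus, egg, adult female and adult male, 1 library each. Filled symbols are measured levels and open symbols are 0 counts drawn at the level of 3 counts; 8 of the 13 were chosen for their female to male ratio, among them GAZX01036649 and GAZX01021516 (high in female) and GAZX01002694 and GAZX01015980 (high in male).

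Female to male ratios were not used to choose the contigs and so give a separate reading of the 2 sets. Among the 3958 contigs higher in chalimus, 370 (9.35%) were higher in adult female than in adult male and 1701 (43.0%) were lower. Over all contigs tested these shares were 11.6% and 17.2%, and over the contigs that did not differ between chalimus and egg they were 10.8% and 13.0%. Among the 2343 contigs lower in chalimus the balance was turned, with 488 (20.8%) higher in adult female and 97 (4.14%) lower. The first set thus had its larger count on the male side and the second on the female side. A sex call needs 50 counts in the higher adult. Adult female reached 50 counts for 65.2% of the contigs higher in chalimus and adult male for 76.3%. For the contigs lower in chalimus these shares were 54.8% and 40.0%, against 80.2% and 81.4% of all contigs tested. Fewer contigs of either set could thus be called than in the background.

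Scaling moves the balance between the sexes, because the median log2 female to male ratio of all contigs tested was -0.35 with this scaling, 0.04 when scaled by totals and -0.10 when scaled by DESeq2. Of all contigs that differed between the sexes, 40.2% were higher in female here and 54.2% with total counts. The contigs higher in chalimus had a median log2 female to male ratio of -2.01, and with total counts of -1.66. For the contigs lower in chalimus the median was 0.29, and 0.62 with total counts. Under every alternative in which the adults were scaled, the share that was higher in female stayed between 14.9% and 20.7% of the sex-differing contigs on the chalimus side, and between 68.4% and 96.2% on the egg side.

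**Figure D4:**
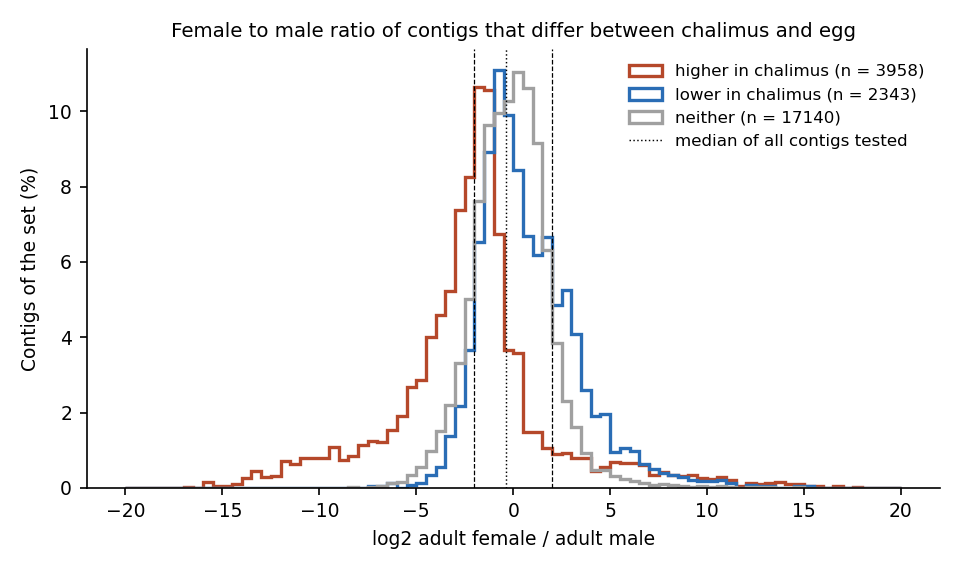
Distribution of the log2 adult female to adult male ratio (horizontal axis, bins of 0.5) as a percentage of each set, for the contigs higher in chalimus than egg, lower in chalimus than egg, and neither. Dashed lines mark a 4-fold difference and the dotted line the median of all contigs tested, -0.35; the first set is shifted towards male (median -2.01) and the second has its longer side towards female (median 0.29).

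This balance was not the same at every size of stage difference, with counts of 0 again set at 3 counts and other low counts left as they were. Of the contigs 4-fold to 8-fold higher in chalimus, 14.3% were higher in female and 37.7% lower, whereas of the 493 with 256-fold or more, 3.85% were higher in female and 48.3% lower. On the egg side the contigs 4-fold to 8-fold lower in chalimus were higher in female for 18.5% and lower for 6.24%. Of those 8-fold to 16-fold lower in chalimus 15.3% were higher in female and 2.42% lower. From 16-fold to 64-fold these shares were 20.8% and 1.65%, and from 64-fold to 256-fold 46.5% and 2.33%. Of the 59 that were 256-fold or more lower in chalimus, 52 (88.1%) were higher in female and 1 was lower. A large difference needs many counts in the higher stage, so size of difference and abundance are tied here.

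Set against their chalimus level, the contigs higher in chalimus took several courses in the adults. Within 4-fold of chalimus in both sexes were 1308 contigs (33.0%), against 70.0% of all contigs tested, a share that includes contigs under the count minimum. Lower than chalimus in both sexes were 798 (20.2%), against 5.29% of all contigs tested, and 1043 (26.4%, background 12.2%) were lower in female but within 4-fold in male. In all, 2079 were lower in adult female than in chalimus and 1100 were lower in adult male, where the background was 18.6% and 9.09% of the contigs tested. These ratios share the chalimus library with the choice of contigs, which favours contigs high in that library, so the excess over the background is a description. Against egg, which shares the other library, 1552 of the 3958 were higher in adult female and 2603 in adult male, with a background of 11.4% and 16.9%.

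The 798 contigs lower than chalimus in both adults had few counts in egg or in either adult, which follows partly from their choice. They took up 9.21% of all chalimus counts and 0.393% of all egg counts, with 0.0336% in adult female and 0.160% in adult male. Their median count was 1439 in chalimus and 18 in egg, and 5 in adult female and 13 in adult male. Their median length was 690 nt, against 1349.5 nt for the 1308 contigs that stayed within 4-fold in both sexes. In copepodid 389 of them (48.7%) had 50 or more counts. This was near the 48.4% of all 3958 contigs higher in chalimus, against 67.3% of all contigs tested.

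For some contigs higher in chalimus the sexes departed from the larval level in opposite directions. There were 205 that exceeded chalimus 4-fold or more in adult female and fell short of it 4-fold or more in adult male (5.18%, background 2.03%). The reverse held for 238 (6.01%, background 1.13%). With total counts the numbers were 184 and 125, so the second depends on the scaling. The 205 contigs took up 1.29% of all chalimus counts and 0.0583% of all egg counts, and in the adults 15.2% (female) and 0.0126% (male). Of the female library 12.7% lay in 10 of them and 4.39% in 1. Their median count was 602 in chalimus and 78 in egg, and in the adults 7223 (female) and 15 (male). The 238 contigs took up 1.07% of all chalimus and 0.0618% of all egg counts, and in the adults 0.0693% (female) and 5.60% (male). Of these, 67 had 0 egg counts, whereas 6 of the 205 did. The labels give no sex for the pooled chalimi.

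The most female-biased of the contigs higher in chalimus was GAZX01036649 (2844 nt), with 71192 counts in chalimus and 23 in egg. In the adults it had 2583815 counts in female, which is 1.73% of that library, and 16 in male, a 106153-fold difference (interval 65368 to 185717). GAZX01021516 (1915 nt) had 76373 counts in chalimus and 11536 in egg, and 869370 in adult female and 9 in adult male (63497-fold, interval 33449 to 138863). The female level was 28.6-fold above chalimus for GAZX01036649 and 8.96-fold above it for GAZX01021516. Both were thus counted in the chalimus pool, whose instar is not given, and were most abundant in adult female.

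The most male-biased were GAZX01002694 (673 nt) and GAZX01015980 (973 nt). GAZX01002694 had 7934 counts in chalimus and 0 in egg, and 0 in adult female and 40083 in adult male, at least 15332-fold lower in female. GAZX01015980 had 10311 counts in chalimus and 3 in egg, and 1 in adult female and 58019 in adult male, an 88263-fold difference whose interval runs from 15841 to 3486270. In male they stood 6.05-fold and 6.74-fold above chalimus. Neither had a count in copepodid, so of the 5 separate stage and sex libraries chalimus and adult male held nearly all their counts.

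Most contigs lower in chalimus were lower than egg in the adults as well. In both sexes 1493 of the 2343 (63.7%) were at least 4-fold below egg, against 9.82% of all contigs tested, which share the egg library with the choice of contigs. They held 6.62% of the egg counts, and 0.322% in chalimus, 0.298% in adult female and 0.143% in adult male. Their median count was 33 in chalimus and 579 in egg, and 31 in adult female and 15 in adult male. A count of 50 or more in copepodid was found for 900 of them (60.3%). This was near the 60.2% of all 2343 contigs lower in chalimus, against 67.3% of all contigs tested.

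A smaller group fell below egg in adult male only. In 422 contigs (18.0%, background 5.76%) the level was at least 4-fold below egg in adult male but not in adult female. These ratios again share the egg library with the choice of contigs. Both adult levels were also used to pick the 422, which puts female above male in each of them. That 284 were called higher in adult female than in adult male (background 11.6%) is therefore a description. The others did not differ between the sexes by the rule. The 422 took up 0.401% of all chalimus counts and 2.98% of all egg counts, and in the adults 1.53% (female) and 0.183% (male). The opposite pattern, below egg in adult female only, was found in 253 contigs (10.8%, background 9.77%), near the background share. In 175 contigs (7.47%, background 74.7%) neither adult was 4-fold below egg.

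**Figure D5:**
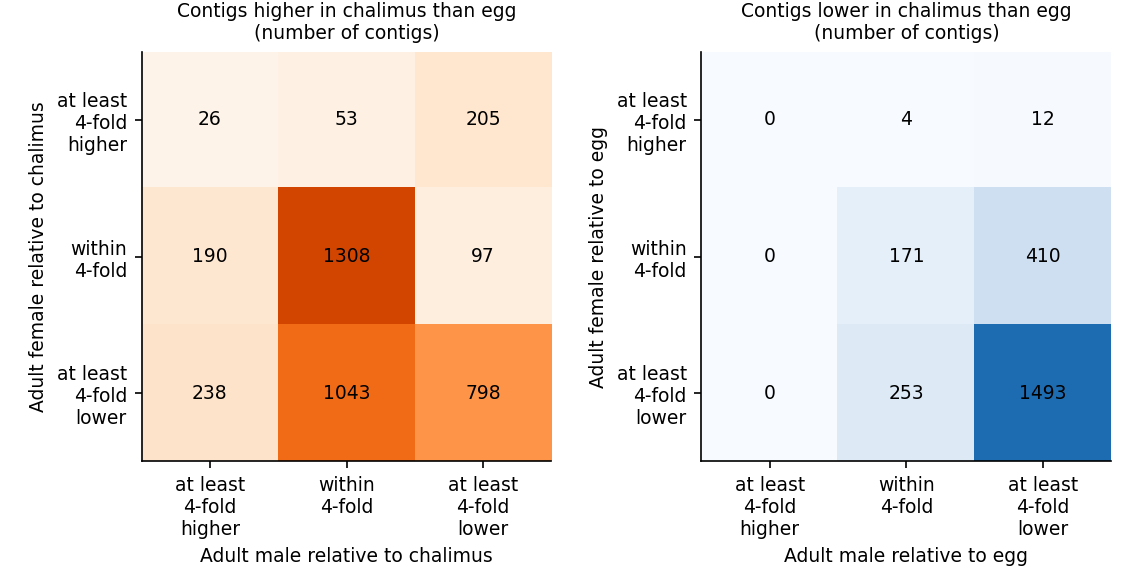
Number of contigs by their level in adult female (rows) and adult male (columns). Levels are relative to chalimus for the 3958 contigs higher in chalimus than egg (left) and to egg for the 2343 lower ones (right). On the left 1308 stay within 4-fold in both sexes and 798 are lower in both, and on the right 1493 are lower than egg in both.

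Among the contigs lower in chalimus, the most female-biased were GAZX01016549 (1086 nt) and GAZX01024815 (2501 nt). GAZX01016549 had 25 counts in chalimus and 56989 in egg (1830.5-fold lower in chalimus, interval 1239.9 to 2829), and 21710 in adult female and 0 in adult male, at least 4757-fold higher in female. GAZX01024815 had 46 counts in chalimus and 1120 in egg (19.6-fold lower, interval 14.6 to 26.9), and 14013 in adult female and 0 in adult male, at least 3070.4-fold higher in female. The first was 2.68-fold lower in female than in egg, and the second 12.3-fold higher.

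The most male-biased on the egg side were at low levels. GAZX01030328 (6208 nt) had 249 counts in chalimus and 1583 in egg, and 15 in adult female and 1419 in adult male (144-fold lower in female, interval 87.0 to 258). GAZX01030731 (1569 nt) had 141 counts in chalimus and 785 in egg, and 7 in adult female and 420 in adult male. In the adult file without a sex it had 642 counts, 215 more than the female and male counts together, so its adult counts depend on how reads were assigned. For the other named contigs the same difference was between -193 and 193 counts.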

How the data were processed

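Whole-animal RNA-seq tables were used for chalimus, egg, adult female and adult male; copepodid was left out of the scaling and given as counts only. Each table lists contigs with raw counts and FPKM, per the file headers. The counts were deposited by the authors without normalisation; the FPKM were deposited by the authors, per length and library total. Aligner, counter and assembler: not given in the sources used here. Whether shared reads were split is not known, and exact intervals assume whole reads. Contig lengths were recovered by dividing counts by FPKM, which gave whole numbers within 0.05 nt for 100% of 279 to 454 contigs above 300 FPKM per file.

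TMM scaling used edgeR 4.0.16 (R 4.3.3) on 4 libraries with egg as the reference, with scaling factors of 1.03 for chalimus, 1.24 for egg, 1.02 for adult female and 0.769 for adult male. Log2 ratios had 0.5 counts added on average per library, in proportion to its scaled size. With 1 library per group no model was fitted. Folds against 0 counts are bounds with 3 counts, the lowest over TMM, total-count and DESeq2 1.42.0 scaling. Shares used as background are over the contigs tested. Contigs were named as the 2 most extreme ratios on each side, ranked by the interval limit nearest to 1, for chalimus to egg and, within each set, female to male, plus the contig with most counts on each side. Gene lists by name could not be applied, and no sequence was used here. The contigs, sets and rules were chosen with earlier results of these data known.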

Additional observations from a re-analysis of the deposited data

Results flagged for a closer look

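The 2 sexes moved in opposite directions from chalimus for 205 contigs, higher in adult female and lower in adult male, and for 238 contigs, lower in adult female and higher in adult male, all among those higher in chalimus than egg (5.18% and 6.01% of them, against 2.03% and 1.13% of all contigs tested). With total counts the numbers were 184 and 125. With 1 library per sex the difference was not tested.

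The copepodid library, which enters no comparison here, had counts for part of the differing contigs. Of the contigs higher in chalimus 1915 (48.4%) had 50 or more copepodid counts and 1499 (37.9%) had 0. Of those lower in chalimus 1410 (60.2%) had 50 or more and 566 (24.2%) had 0. Over all contigs tested these shares were 67.3% and 18.1%. The 2 sets held 12.2% and 3.57% of the copepodid counts.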

How the results depend on the processing

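No paired analysis was possible because each group has 1 library, and leaving a library out would leave no comparison. Over 8 counts of contigs, 69 of 98 alternative values were within 1.5 times the reported one, among them all under total counts, DESeq2 size factors, TMM with copepodid, TMM on chalimus and egg alone, 100 or more counts, a prior count of 5, 500 nt or more and the default TMM reference (the last chosen after seeing the data). The 13 named contigs kept their direction and side of 4-fold in 189 of 189 recomputed ratios. This cannot show robustness, because they were chosen for extreme ratios or for the most counts. Settings that only leave contigs out do not change a ratio.

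The other values moved by more. At 2-fold, 6541 contigs were higher and 5257 lower in chalimus; of the higher ones 813 were higher and 3850 lower in adult female than male, and 1323 were lower than chalimus in both adults; of the lower ones 1718 were higher and 794 lower in female than male, and 1330 were below egg in male only. At 8-fold the corresponding numbers were 2636 and 1190, then 159 and 909, then 202 and 8, with 230 below egg in male only. The shares higher and lower in female at 2-fold were 12.4% and 58.9% of the higher contigs. They were 32.7% and 15.1% of the lower contigs, against 23.7% and 32.3% of all contigs tested. At 8-fold they were 6.03% and 34.5%, then 17.0% and 0.672%, against 6.23% and 9.24%. Without a count minimum 31280 contigs were compared and 6463 were higher in chalimus. Of these, 581 (8.99%) were higher in female than male and 2187 were lower than chalimus in both adults. Of the lower contigs 829 (25.8%) were higher and 312 (9.73%) lower in female, against 12.3% and 19.5% of all 31280. With 20 or more counts 149 of the lower contigs (5.45%) were lower in female. Only 60.3% of the contigs tested had an adult count within 1% of the female and male sum in the file without a sex. Over those 14136 contigs, 2510 were higher and 1334 lower in chalimus. Of the higher ones 220 (8.76%) were higher and 1126 (44.9%) lower in female than male, and 473 were lower than chalimus in both adults. Of the lower ones 324 (24.3%) were higher and 42 (3.15%) lower in female, and 265 were below egg in male only. Over all 14136 the shares by sex were 12.6% and 17.0%. These counts fell with the number of contigs tested. In the main setting the shares were 9.35% and 43.0%, then 20.8% and 4.14%.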

Other observations

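Contigs with consecutive identifiers often differed the same way. Where a contig higher in chalimus was followed by a tested identifier, that next contig was also higher in 44.7% of 3029 cases and lower in 4.95%. After a contig lower in chalimus the next one was lower in 33.9% of 1682 cases and higher in 9.75%, and after a contig that did not differ these shares were 6.83% and 11.1%. Runs of 2 or more consecutive identifiers held 2060 of the 3958 higher contigs (52.0%) and 918 of the 2343 lower ones (39.2%), with longest runs of 17 and 11 contigs. The number of separate genes behind either count is therefore not known.

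Differing contigs were shorter, with a median of 1080 nt for those higher in chalimus and 1169 nt for those lower, against 1584 nt for the rest. Under 500 nt 31.3% were higher and 17.3% lower in chalimus, and at 4000 nt or more 10.5% and 6.62%. By mean scaled CPM over 4 libraries, contigs lower in chalimus made up 21.2% of the least abundant of 5 equal groups and 3.69% of the most abundant one. Contigs higher in chalimus made up 15.7% and 19.7% of the same groups. The mean includes the chalimus and egg levels that make the call, so these shares are not a separate reading of abundance. In egg alone the contigs lower in chalimus had a median of 4.28 FPKM, against 5.62 FPKM for those that were neither. At 100 FPKM or more in egg were 5.63% and 4.39% of them. The egg level also makes the call, so these values are not a separate reading either.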
